A study of Leucocroton havanensis and Lasiocroton microphyllus with 3 samples.

Results

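The contigs described here were abundant in a field leaf of Leucocroton havanensis, a shrub of the spurge family (Euphorbiaceae), and close to absent from a field leaf of its relative Lasiocroton microphyllus. A contig is an assembled stretch of transcript sequence. A contig was a member if it had at least 1000 raw counts in the L. havanensis field leaf and at most 2 raw counts in the L. microphyllus field leaf. Of 58990 contigs, 123 met both limits. The members were selected on the raw counts of both field libraries, so the difference between the libraries is a description of the choice and carries no test.

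Leaf polyA RNA was sequenced from both species, and the labels call L. havanensis a nickel hyperaccumulator and L. microphyllus a plant that does not accumulate nickel. The L. havanensis leaf was collected in the wild at La Coca, Cuba, in July 2014 and the L. microphyllus leaf at Cojimar, Cuba, in May 2015, and each group is 1 library. Soil, habitat and leaf age are not given per sample, and species, site, year and season cannot be told apart. A further sample, from L. havanensis kept in culture on Murashige and Skoog agar containing 500 mg/L NiSO4, is not used here, but its reads were assembled into the contigs on which both field libraries were counted. The field libraries held 94247756 counts (L. havanensis) and 76372207 counts (L. microphyllus).

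Nickel hyperaccumulators take up nickel through the roots, move it in the xylem and store it in the shoot, largely in vacuoles of leaf cells. Membrane transporters of divalent metals and small ligands such as histidine, nicotianamine and organic acids are known to take part in metal handling in plants. Comparing an accumulator with a related species that does not accumulate the metal is an established way to look for transcripts that go with the trait. The files name contigs by number only, so which of the 123 contigs code for transporters, ligand-making enzymes or anything else was not analysed here. Markers of leaf cell types could not be checked for the same reason, and no contig sequence is printed.

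Near-absence in the other species was rare among abundant contigs. At least 1000 L. havanensis counts were present for 12918 contigs, and the 123 members were 0.952% of these (exact binomial 95% interval 0.792% to 1.14%). The other 12795 abundant contigs had a median of 1811 counts in L. microphyllus, with quartiles of 791 and 3936. Of the members, 67 had 0 counts in L. microphyllus, 32 had 1 count and 24 had 2 counts. The members had no clear gap above them: 14 abundant contigs had 3 counts, 13 had 4, 14 had 5 and 58 had 6 to 10. They were not the thinning end of a tail, since a count of 0 held more abundant contigs than any single count from 1 to 5. Intervals on shares of contigs, here and below, treat contigs as independent draws, which they are not shown to be. Intervals on counts, CPM and ratios cover counting error only. Neither kind says anything of variation between plants.

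**Figure D1:**
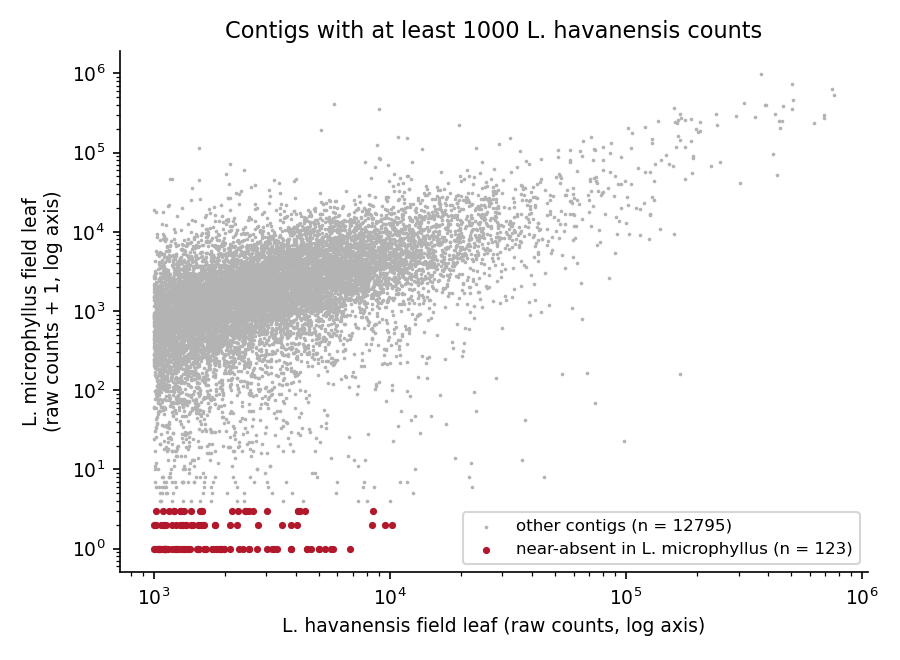
Raw counts of the 12918 contigs with at least 1000 counts in the L. havanensis field leaf (x axis, log) against raw counts plus 1 in the L. microphyllus field leaf (y axis, log), 1 library each. The 123 members (red) lie in 3 rows at 0, 1 and 2 counts, and 12795 other contigs (grey) lie above them.

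The limits cut through a continuous range. The members nearest to the lower limit had 1000, 1004 and 1010 L. havanensis counts, and the contigs left out just below it had 998, 997 and 994. At the other limit, the 24 members with 2 L. microphyllus counts had between 1025 and 8504 L. havanensis counts, with a median of 1876.5. The 14 contigs left out with 3 L. microphyllus counts had between 1063 and 10030. The ranges on either side of this limit overlapped over most of their length.

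**Figure D2:**
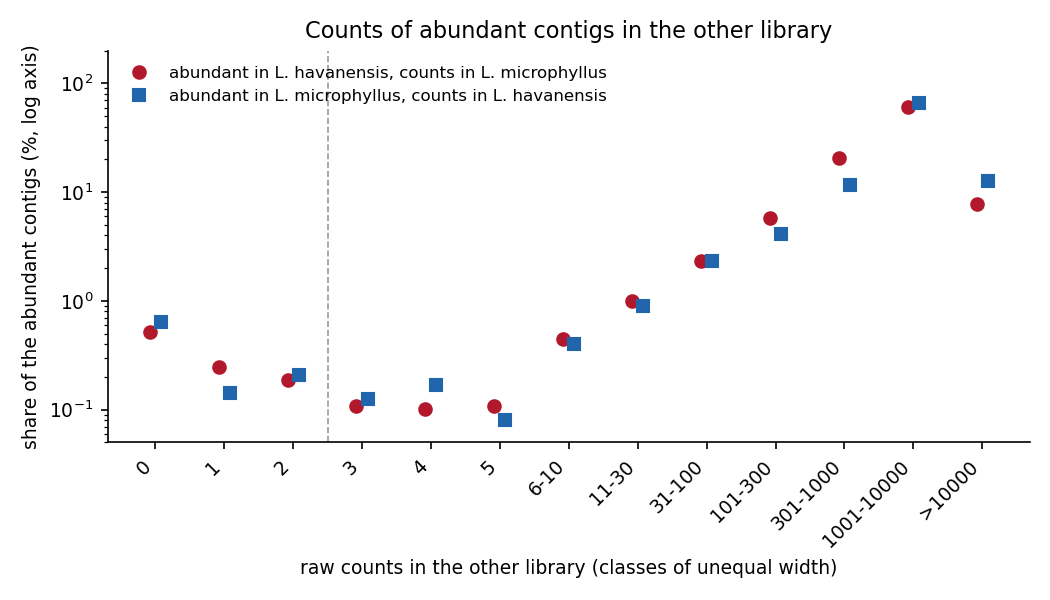
Share of abundant contigs (y axis, percent, log scale) in each class of raw count in the other library (x axis, classes of unequal width), for 12918 contigs with at least 1000 L. havanensis counts (circles) and 11153 contigs with at least 1000 L. microphyllus counts (squares). Left of the dashed line are contigs with 2 counts or fewer in the other library. For L. microphyllus counts the share falls from 0.519% at 0 to 0.108% at 3, and it is 60.6% in the much wider class of 1001 to 10000.

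The members were moderately abundant L. havanensis transcripts and not the leading ones. Their L. havanensis counts ran from 1000 to 10172, with a median of 1584 and quartiles of 1220 and 2532.5. All abundant contigs had a median of 2886.5. Ranked by L. havanensis counts over all contigs, the first member stood at position 1482. None of the members was therefore among the 1000 contigs with most counts, 4 were among the first 2000, 18 among the first 5000 and 61 among the first 10000. Contig lengths were not used here, so these are orders of counts and not of transcript level per length.

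In counts per 1000000 (CPM) after trimmed-mean scaling (TMM, edgeR), the members lay between 8.49 and 86.4 CPM in L. havanensis, with a median of 13.4 CPM. A count of 0 in L. microphyllus allows up to 3 counts, which is 0.0491 CPM there, and the limit of 2 counts is 0.0327 CPM. Together the 123 members held 282001 counts, which was 0.299% of the L. havanensis library (0.298% to 0.300%). In L. microphyllus they held 80 counts. At the same TMM-scaled abundance, and with reads of both species matching equally well, they would have drawn 146276 counts in L. microphyllus. This ran from 519 for the faintest member to 5276 for the most abundant. How well the reads matched was not tested, and total-count scaling would multiply these values by 1.56.

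The counts were spread over many contigs. The 10 members with most L. havanensis counts held 24.9% of the counts of all members, and the first 20 held 39.7%. The contig with most counts, Lhav_v1_contig_3250, had 10172 L. havanensis counts and a single L. microphyllus count. That was 86.4 CPM (84.7 to 88.0) against 0.0164 CPM (0.000414 to 0.0912), a ratio of 5276 (947 to 208422). Lhav_v1_contig_2052 followed with 9519 L. havanensis counts and also 1 count in the other species. It stood at 80.8 CPM (79.2 to 82.4) in L. havanensis and had a ratio of 4938 (886 to 195044). The upper limits of these ratios are wide because they rest on a single L. microphyllus count. These 2 contigs are the only members given by identifier.

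Behind them, the next member had 8504 L. havanensis counts with 2 in L. microphyllus, and the one after it had 8384 with 1. The following 5 members had 6776, 5771, 5649, 5320 and 5005 L. havanensis counts, and each of these contigs had 0 counts in L. microphyllus. The 4 members with most counts thus each had at least 1 L. microphyllus count, while the next 5 had none. The members after these also had none, down to the one with 4450 L. havanensis counts.

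**Figure D3:**
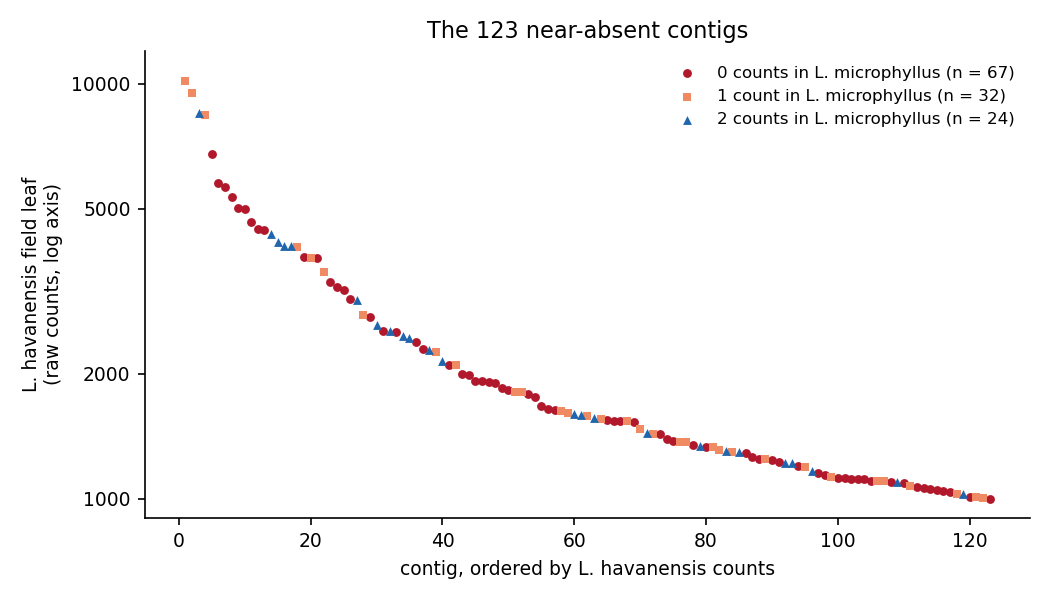
Raw L. havanensis field leaf counts (y axis, log) of the 123 members in descending order (x axis), with the L. microphyllus count shown as circles (0 counts, 67 contigs), squares (1 count, 32 contigs) and triangles (2 counts, 24 contigs). The 3 kinds are mixed along the order, which runs from 10172 to 1000.

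Members with 0, 1 and 2 L. microphyllus counts spanned much the same L. havanensis counts. The 67 members at 0 had from 1000 to 6776 L. havanensis counts with a median of 1640, the 32 at 1 count had from 1004 to 10172 with a median of 1504, and the 24 at 2 counts had from 1025 to 8504 with a median of 1876.5. The 3 ranges overlapped over most of their length.

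The fold followed from the limits of the choice. With 3 counts set in place of 0, the 67 members at 0 were at least 173-fold to at least 1172-fold higher in L. havanensis. The 3 counts are a one-sided limit, and the exact two-sided 95% interval allows more, so its lower limits for these 67 members were smaller, from 140 to 953. The ratio ran from 521 to 5276 for members with 1 L. microphyllus count and from 266 to 2206 for those with 2. The lower limit of the exact 95% interval of the ratio ran from 73.4 to 953 over all members, with a median of 177. All 123 members had their whole interval above 4-fold, and 111 had it above 100-fold. Over the 50943 contigs whose counts in both libraries summed to at least 20, 15.9% lay above 4-fold in this direction and 0.42% above 100-fold. The choice of members used this contrast, so nothing is read from these shares. With total-count scaling or upper-quartile scaling 123 members lay above 100-fold, and with DESeq2's median of ratios 107 did.

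Some contigs outside the choice had a higher lower limit of the ratio than the members. Ranked by the lower limit of the ratio, members took 29 of the first 50 places and 67 of the first 100, with the first member at place 4. The other 33 contigs of the first 100 had a median of 7 L. microphyllus counts and 11800 L. havanensis counts. They were left out by the limit of 2 counts although their median L. havanensis count was above that of every member. Any scaling multiplies all ratios alike, so this order holds under each of the scalings.

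Members became scarcer as abundance rose. They made up 81 of 4347 contigs with at least 1000 and under 2000 L. havanensis counts (1.86%, interval 1.48% to 2.31%) and 33 of 4862 from there to under 5000 (0.679%, 0.468% to 0.952%). They made up 8 of 2198 contigs with at least 5000 and under 10000 counts (0.364%, 0.157% to 0.716%) and 1 of 1511 with 10000 or more (0.0662%, 0.00168% to 0.368%). A fixed limit of 2 counts asks for a larger ratio from a contig with more counts, so the classes were not held to the same ratio. How much of the fall goes with this was not tested.

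The mirrored choice, at least 1000 counts in L. microphyllus and at most 2 in L. havanensis, gave other shares than the members at high and at low counts. It was met by 110 of 11153 contigs (0.986%, 0.811% to 1.19%), a share like that of the members. At a minimum of 10000 counts the share was 8 of 1140 contigs (0.702%, 0.303% to 1.38%) in the mirrored direction against 1 of 1511 (0.0662%, 0.00168% to 0.368%) for L. havanensis. At a minimum of 100 counts the order was the other way, with 612 of 23536 (2.60%, 2.40% to 2.81%) against 1805 of 29296 (6.16%, 5.89% to 6.44%). Mirrored contigs had up to 44446 counts, and members had up to 10172. All contigs were assembled from L. havanensis in culture, so mirrored contigs were low in its field leaf and are not shown to be absent from the species. The 2 directions are therefore unlike in kind. The limits in raw counts are also unequal on a scale of CPM. At an equal minimum of 16.4 CPM with TMM scaling, 44 contigs were near-absent from the L. microphyllus field leaf and 110 from the L. havanensis field leaf. The limit of 2 counts was left raw, at 0.0327 CPM in L. microphyllus and 0.0170 CPM in L. havanensis. These 2 numbers are therefore still not like for like. With total-count scaling the number near-absent from the L. microphyllus field leaf was 90, with upper-quartile scaling 77 and with DESeq2 scaling 40. The number near-absent from the L. havanensis field leaf stayed at 110 by construction, since each equal minimum was the CPM of 1000 L. microphyllus counts. No test was made of these differences, as there is 1 library per species.

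Members were more frequent among contigs with high numbers in their identifiers. The number took no direct part in the choice, but it went with the counts that did. What sets the order of the numbers is not given in the sources used here. Over all 58990 contigs the number fell with the count in both libraries, with a Spearman rho of -0.72 for L. havanensis and -0.66 for L. microphyllus. These are descriptions over contigs of the same assembly. The choice used both counts, so the numbers of the members are not independent of it and lend it no support. Members had a median number of 14840, and the other 12795 abundant contigs had a median of 8578. Between 1000 and under 2000 L. havanensis counts the medians were 18096 for members and 13492.5 for the others. From 2000 to under 5000 they were 11288 and 8961, and from 5000 to under 10000 they were 10583.5 and 5626.5. Members thus had the higher median number in each of these 3 classes.

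The share of members among abundant contigs was 0.379% (0.212% to 0.624%) for numbers 1 to 5000 and 0.657% (0.412% to 0.993%) for 5001 to 10000. It was 0.963% (0.624% to 1.42%) for 10001 to 15000 and 1.14% (0.686% to 1.77%) for 15001 to 20000. It reached 1.95% (1.12% to 3.14%) for 20001 to 25000 and 5.03% (3.31% to 7.28%) for 25001 to 58990, where 26 of 517 abundant contigs were members. Between 1000 and under 2000 L. havanensis counts alone, the share was 0.958% (0.353% to 2.07%) for the lowest numbers and 5.44% (3.40% to 8.20%) for the highest. From 2000 to under 5000 it was 0.480% (0.176% to 1.04%) and 3.64% (1.00% to 9.05%, 4 of 110 contigs). Those 2 intervals overlapped, and the share did not rise steadily between them. Over all abundant contigs, the share was higher for the highest numbers in the mirrored direction as well. There, 16 of 3554 abundant contigs with the lowest numbers were near-absent from the L. havanensis field leaf (0.450%, 0.258% to 0.730%). Of those with the highest numbers, 41 of 705 were (5.82%, 4.21% to 7.81%). The rise with contig number was therefore not particular to the members.

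**Figure D4:**
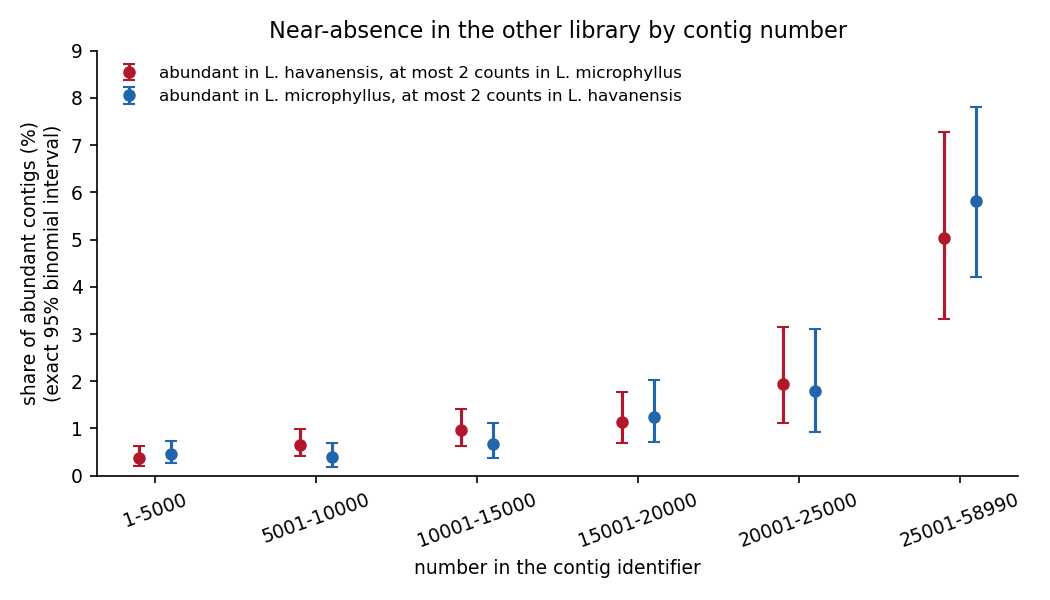
Share of abundant contigs (y axis, percent) near-absent from the other library, with 2 counts or fewer there, by the number in the contig identifier (x axis), for contigs abundant in L. havanensis (red) and in L. microphyllus (blue); points are shares and bars are exact 95% binomial intervals over contigs. In both directions the share is under 0.5% for numbers 1 to 5000 and over 5% for numbers above 25000.

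The numbers of the members ran from 246 to 47715. A single pair of members had consecutive numbers, and the median step from a member to the next was 236.5. Pairs were not counted for other sets of contigs, so neither clustering nor its absence is read from this. The 244 other contigs numbered directly before or after a member had a median of 467 L. havanensis counts and 246.5 L. microphyllus counts. Of these neighbours, 25 had at most 2 L. microphyllus counts (10.2%), against 20.5% of all 58990 contigs. The 2 sets are not matched for number. All contigs had a median number of 29495.5 and a median of 37 L. microphyllus counts, while the members beside these neighbours had a median number of 14840. Since counts fell with the number, nothing is read from the 2 shares.

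Low counts were even more often than odd in both libraries, which bears on what a count of 2 stands for. Exactly 2 L. microphyllus counts were present for 2477 contigs and exactly 1 for 2049. In L. havanensis these numbers were 921 and 521. Over counts from 1 to 10, 53.8% of L. microphyllus counts (53.0% to 54.7%) and 59.7% of L. havanensis counts (58.5% to 60.9%) were even. Between 101 and 1000 counts the shares were 49.7% (48.9% to 50.6%) and 50.4% (49.6% to 51.1%). Among the members 24 were at 2 counts and 32 at 1 count. No interval was made for these few contigs, so no difference from the library is read from them. Reads were sequenced in pairs, and whether a pair was counted once or as its separate mates is not given in the sources used here. With all counts halved and rounded up, the number of members with their whole interval above 100-fold was 58 in place of 111.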

How the data were processed

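Leaf polyA RNA of 3 samples was sequenced as read pairs, and the 2 field libraries were used here. Per the labels' protocols, leaves from the field were put in RNAlater and libraries were made with a stranded Illumina mRNA kit. The deposited values are raw counts per contig, per the file headers, on a transcriptome assembled de novo from in vitro L. havanensis. Not given in the sources used here are the assembler, aligner, counting tool and handling of reads that match more than 1 contig. L. microphyllus reads were counted on contigs of the other species, so lower expression, a missing gene and reads lost to sequence differences cannot be told apart. Near-identical contigs can split reads.

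Counts were joined on the contig name and used as deposited. Scaling factors came from edgeR 4.0.16 (TMM, contigs with at least 20 summed counts, R 4.3.3) with values of 1.25 (L. havanensis) and 0.80 (L. microphyllus), so 1 count was worth 0.00849 and 0.0164 CPM, where CPM is the count per 1000000 scaled counts. The total of each library ran over all 58990 contigs. Ratios carry an exact 95% interval (Clopper-Pearson, from a contig's L. havanensis counts out of its summed counts), CPM values exact Poisson intervals, and a count of 0 was replaced by 3 counts in a ratio. Intervals and limits on counts cover counting error only. They take counts as independent, so they are too narrow where counts hold PCR copies or both mates of a pair. Intervals on shares of contigs take contigs as independent. With 1 library per group no test was made. Alternatives were other count limits, thinning the deeper library, other scalings (DESeq2 1.42.0 among them), halved counts and the ratio without its interval. The procedure was checked on simulated independent Poisson counts, which hold no variation between plants and no reads lost to sequence differences. That check covers the computation only.

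The members, lists and limits were chosen with earlier results of these data known. The contigs named are the 2 members with the highest L. havanensis count. Lists of metal transport, metal chelation, photosynthesis, defence, transposon, leaf cell type and other-organism genes were planned for contigs with gene names and could not be applied.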

Additional observations from a re-analysis of the deposited data

How the results depend on the processing

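No paired analysis was possible because each group has 1 library, and for the same reason no replicate could be left out. The members depend on the limits that define them. With a minimum of 500 counts there were 325 contigs, holding 0.451% of the L. havanensis counts and making up 1.89% of contigs past that minimum, with a median number of 19082, and 182 contigs met the mirrored choice. With a minimum of 2000 counts these values were 42, 0.182%, 0.490%, 10746 and 52, and all 42 lay above 100-fold. With 0 counts required in the other library, 67 contigs remained, all above 100-fold, holding 0.155% of counts and making up 0.519% of abundant contigs, and 71 met the mirrored choice. With at most 5 counts the members held 0.449% of counts and made up 1.27% of abundant contigs, and 1 stood among the 1000 contigs with most counts. With the deeper library thinned at random to equal totals, the shares were 0.261% and 0.774%. At an equal minimum in CPM there were 44 members with TMM scaling, and, as alternatives chosen after seeing the data, 77 (upper quartile) and 40 (DESeq2). With counts halved, 58 members lay above 100-fold. These changes follow from the altered limits, depth or counts themselves. Within 1.5 times the main number stayed the members past 100-fold under the other scalings and filters (107 to 123), and the number of members with thinning (90) or at most 5 counts (164). Of the 123 members, 12 had a lower limit at or under 100-fold, all with 1 or 2 L. microphyllus counts, while the 67 at 0 lay above it.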
